A study of Mus musculus with 28 samples.

Results

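Chromatin regions that carried the state U2 in wild-type mouse embryonic fibroblasts (MEFs) and the state U1 in SirT7-/- MEFs, in both treatments, are described here. They were chosen by the chromatin states that the authors deposited for 200 bp bins. A region is an unbroken run of bins on chromosomes 1 to 19, at least 1 kb long, that is U1 in the KO-GS and KO-NT segmentations and U2 in the WT-GS and WT-NT segmentations. There were 7051 such regions, of 246922 autosomal runs of 1 kb or longer in which all 4 segmentations kept one combination of states. The regions are called lost U2 below, which names the pattern and no cause.

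SIRT7 is a nuclear sirtuin, an enzyme that uses NAD to remove acyl groups from histones and other proteins. MacroH2A1 is a histone H2A variant with a large extra domain, enriched in silent chromatin and on the inactive X chromosome. Its splice form macroH2A1.1 binds ADP-ribose and its metabolites. H3K27me3 is the mark that Polycomb repressive complex 2 writes over silent developmental genes, often in broad domains whose ends are less sharp than those of promoter marks.

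Each segmentation is tied by the labels to ChIP-seq for H3K27me3 and for macroH2A1.1, which the sample names call mH2A1. Cells were primary MEFs of strain 129s2 at passages 3 to 4, from embryos of day 14.5, and all groups share that background. The groups were KO-GS and KO-NT (SirT7-/- cells) and WT-GS and WT-NT (wild-type cells). GS and NT are the treatments as labelled. The labels expand neither abbreviation, and the series title concerns glucose starvation. Behind each segmentation stand 4 ChIP libraries, 2 per target, so it has no replicate error. The SIRT7 peak lists come from WT cells alone, 1 list per treatment with 2 libraries behind each. The labels name neither the number nor the sex of the embryos. The cell type was taken from the labels, since segmentations and peak lists hold no expression values.

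The state names U1 to U4 have no description in the sources used here. U1 took up most of the autosomes, at 72.3% in KO-GS, 73.5% in KO-NT, 69.0% in WT-GS and 69.4% in WT-NT, and U2 came next, at 17.6% in KO-GS, 17.2% in KO-NT, 20.9% in WT-GS and 20.8% in WT-NT. U2, U3 and U4 are together called marked. Autosomal segments numbered 331492 in KO-GS, 232353 in KO-NT, 314776 in WT-GS and 348157 in WT-NT, so KO-NT was cut into the fewest pieces. Read depth is unknown. With 1 pooled segmentation per genotype and treatment, a difference between genotypes cannot be told apart from a difference in how each segmentation turned out, and no value below has a test. Errors are SDs over the 19 autosomes, which describe spread along the genome and not between cultures. Positions are on mm9, counted from 1. Gene names and sequences are not given, because no annotation or genome of that build was used here.

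Lost U2 came in short pieces. The 7051 regions summed to 22.4 Mb, which is 0.906% of the autosomes and 5.30% of the 422.4 Mb that were U2 in both WT segmentations. Their median length was 2400 bp, with quartiles at 1600 and 4000 bp, and the longest was 23200 bp. Regions of 5 kb or longer numbered 1179 (16.7%) and held 37.7% of the bases, and 137 regions (1.94%) reached 10 kb. U2 that was present in all 4 segmentations ran in longer pieces, with 47758 runs of 1 kb or longer, a median of 3000 bp, 15.8% of runs at 10 kb or more and a longest run of 497800 bp. The length minimum left out little sequence, since runs of 1 kb or longer held 94.0% of all lost bases. Just inside the minimum were 529 runs of 1000 bp, and just outside it 511 runs of 800 bp.

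The longest region, on chromosome 3 from 114860401 to 114883600, shows the pattern at one place. It lay in the middle of a domain of 115 kb that was marked throughout in both WT segmentations. In the 10 kb on each side, 61.0% of bins in KO-GS and 54.0% in KO-NT were marked, against 100% in both WT-GS and WT-NT. The region therefore lay inside a domain that continued on both sides in WT. In KO the flanks were broken. Past the midpoint, KO-NT was U2 only from 11.8 to 12.6 kb and then U1 to 28.4 kb. KO-GS was U2 from 11.6 to 16.0 kb and then U1 to 22.6 kb.

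**Figure D1:**
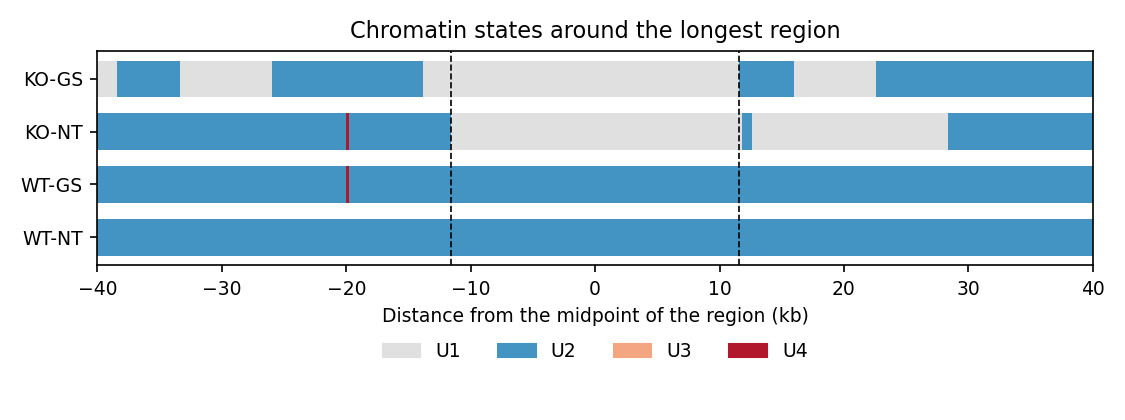
Chromatin states from 40 kb before to 40 kb after the midpoint of the longest region, with KO-GS and KO-NT above WT-GS and WT-NT; colours are the deposited states and dashed lines mark the region, at -11.6 and 11.6 kb. Both KO rows are U1 between the lines, where both WT rows are U2.

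Most WT U2 was also U2 in KO. Of the bins that were U2 in both WT segmentations, 71.3% were U2 in both KO segmentations and 5.64% were U1 in both, the share from which the regions are drawn. A further 7.67% were U1 in KO-GS and U2 in KO-NT, and 10.0% were U2 in KO-GS and U1 in KO-NT. U3 or U4 in both KO segmentations took 1.11%. Loss in one treatment was more common than loss in both. Of the WT U2 bins that were U1 in KO-GS, 41.5% were U1 in KO-NT as well, against 16.1% of all WT U2 bins. Of those U1 in KO-NT, 35.0% were U1 in KO-GS, against 13.6% of all WT U2 bins. The states differed in how much of them became U1 in both KO segmentations. That share was 3.27% for bins U3 in both WT segmentations and 0.413% for bins U4 in both.

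The same bins can be set against the change between treatments within a genotype, which is the only other scale of difference these files offer. Of WT-GS U2 bins, 21.5% ± 2.28 (SD over 19 autosomes) were U1 in KO-GS, and of WT-NT U2 bins 23.0% ± 2.16 were U1 in KO-NT. Between treatments, 17.3% ± 2.36 of KO-NT U2 bins were U1 in KO-GS and 19.4% ± 2.31 of KO-GS U2 bins were U1 in KO-NT. In WT these values were 12.4% ± 1.11 of WT-NT U2 bins and 14.4% ± 1.37 of WT-GS U2 bins. In the opposite direction of genotype, 8.15% ± 0.752 of KO-GS U2 bins were U1 in WT-GS, and 9.76% ± 1.70 of KO-NT U2 bins were U1 in WT-NT. A change from WT U2 to KO U1 was thus more frequent than its reverse, while the change between treatments within KO came close to the change between genotypes. Requiring the pattern in both treatments keeps only the portion that did not move between NT and GS in either genotype.

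Far less U2 was gained than lost. The reverse pattern, U2 in both KO segmentations and U1 in both WT segmentations, gave 813 regions of 1 kb or longer with a sum of 2.05 Mb, so lost regions outnumbered gained ones 8.67 to 1 and exceeded them 10.9 to 1 in summed length. Gained regions were also shorter, with a median of 2000 bp and a longest of 14400 bp. Of the bins U2 in both KO segmentations, 0.704% were U1 in both WT segmentations, and of the bins U1 in both WT segmentations, 0.143% were U2 in both KO segmentations. The excess goes with the lower U2 share of both KO segmentations given above, and its origin was not tested. Treatment gave no such imbalance. The rule applied to treatment in place of genotype found 2972 regions (9800.8 kb) that were U1 in both GS and U2 in both NT segmentations. It found 3614 regions (11473.6 kb) with U2 in both GS and U1 in both NT segmentations. Their median lengths were 2600 and 2400 bp and the longest 26000 and 29000 bp, so short pieces were not particular to lost U2.

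Lost regions reached a single end of a WT domain somewhat more often than they lay inside one. The rest were whole domains, which touch both ends. A WT domain is here a run of bins marked in both WT segmentations. Of the regions, 2889 (41.0% ± 3.39, SD over 19 autosomes) lay inside a domain and touched neither end, 3293 (46.7% ± 3.33) reached one end, and 869 (12.3% ± 1.96) were a whole domain, which requires U2 throughout it in both WT segmentations. The shares were alike along the genome, from 34.9 to 48.1% inside and from 8.07 to 15.5% whole on single chromosomes. Regions inside had a median of 2800 bp and sat in domains with a median length of 26.60 kb. Those at an end had medians of 2200 bp and 11.40 kb, and the lost whole domains a median of 2.600 kb. Of the regions inside, 24.8% came within 1 kb of the nearer end, and 42.2% lay over 5 kb from it, at most 214 kb away. These shares, and whether inside or end was the larger, depend on the length minimum and on what counts as a domain. With domains taken from WT-NT alone 65.1% of regions were inside, 31.1% at an end and 3.86% whole, and with domains of U2 alone 16.3% were inside and 29.6% whole. Gained regions, placed in KO domains by the same rule, were inside in 28.2%, at an end in 59.0% and whole in 12.8% of cases.

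Short domains lost the largest share of their U2. Domain lengths come from the WT segmentations that also chose the regions, so this slope is a description. Whether gained U2 or the treatment patterns follow domain length in the same way was not tested. There were 29571 WT domains of 1 kb or longer, with a median of 9.20 kb, and 5885 of them (19.9%) held at least 1 region. In domains of 1 to 2 kb, 39.1% ± 6.99 of WT U2 bins were U1 in both KO segmentations, in those of 5 to 10 kb 19.1% ± 3.20, in those of 20 to 50 kb 5.54% ± 1.06, and in those of 100 kb or longer 1.09% ± 0.304. The share of domains that held a region changed less, from 10.4% at 1 to 2 kb to 23.9% at 20 to 50 kb and 21.9% at 100 kb or more. The low share at 1 to 2 kb follows in part from the length minimum. A region needs 1 kb of WT U2, and these 2959 domains held only 6166 WT U2 bins of 200 bp. The share of U2 bins lost has no length minimum, and it was smaller in long domains. Of 14248 domains of 10 kb or longer, 3326 (23.3%) held a region, 340 were U1 in both KO segmentations over at least 50% of their length, and 41 over all of it. Of all domains of 1 kb or longer, 1561 (5.28%) were U1 in both KO segmentations throughout, the longest of them 29000 bp. This number includes domains that held U3 or U4, or a mix of states, in WT, which are no whole-domain regions.

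Nearness to a domain end went with loss in long domains too. The domain ends also come from the WT segmentations that chose the regions, so the same limit holds. Over all domains, 27% ± 2.45 of WT U2 bins at the very end of a domain were lost, 15.5% ± 1.89 of those 1 to 2 kb in, 4.74% ± 0.922 of those 5 to 10 kb in and 0.490% ± 0.361 of those 50 kb or more from either end. In domains of 50 kb or longer the share was 11.2% ± 2.43 within 1 kb of an end, 2.70% ± 0.722 at 5 to 10 kb and 1.26% ± 0.311 at 20 to 50 kb. Distance to U3 or U4 showed no comparable slope. WT U2 bins within 1 kb of a bin that was U3 or U4 in either WT segmentation were lost in 4.31% ± 0.846 of cases, those 1 to 5 kb away in 6.27% ± 0.953 and those 20 kb or more away in 5.87% ± 1.41.

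**Figure D2:**
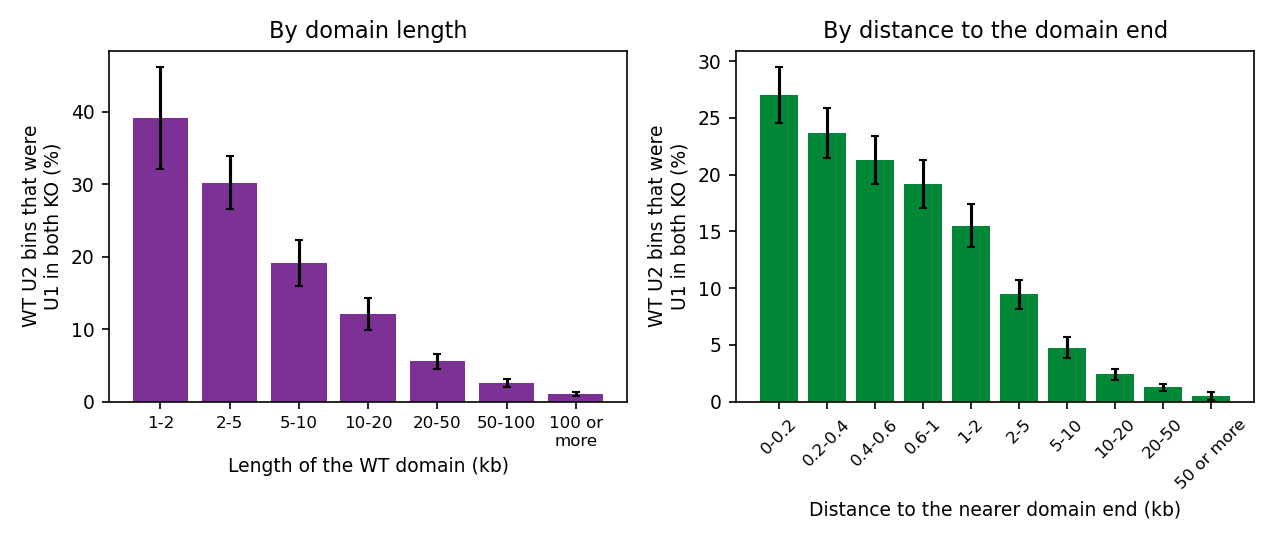
Share of WT U2 bins (%) that were U1 in both KO segmentations, by the length of the WT domain (left, kb) and by distance to the nearer domain end (right, kb); bars are all 19 autosomes together and error bars 1 SD over chromosomes. The share is 39.1% in domains of 1 to 2 kb and 1.09% in those of 100 kb or longer, and it is 27% at the very end and 0.490% at 50 kb or more from an end.

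Where a region stopped was mostly decided by 1 of the 4 segmentations. At 86.2% of the 14102 region ends, the next bin broke the rule in a single segmentation. At 34.0% of the ends the WT segmentations stayed U2 and one KO segmentation returned to U2. At 32.7% the KO segmentations stayed U1 and one WT segmentation turned to U1. At 16.3% the KO segmentations stayed U1 while at least 1 WT segmentation was U3 or U4. Both treatments of one genotype seldom switched at the same bin. At 1.49% of ends both KO segmentations turned to U2 while WT stayed U2, and at 2.47% both WT segmentations turned to U1 while KO stayed U1. The exact ends of a region therefore carry the imprecision of 4 boundaries.

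The difference between genotypes narrowed with distance from a region. By construction all regions are U1 in KO and U2 in WT at their midpoint, and the flanks come from the segmentations that chose them, so the profile is a description. At 5 kb from the midpoint 25.9% of positions in KO-GS and 27.3% in KO-NT were U2, against 51.2% in WT-GS and 51.9% in WT-NT. At 20 kb these values were 30.2% in KO-GS and 31.9% in KO-NT, against 41.2% in WT-GS and 41.7% in WT-NT. All 4 exceed the autosomal U2 shares given above. The regions were chosen as U2 in WT, and no profile was made around kept U2 or all WT U2. Whether U2-rich flanks are particular to lost regions was therefore not tested. U3 was alike in the 4 segmentations at 20 kb, at 9.78% in KO-GS, 9.30% in KO-NT, 9.74% in WT-GS and 9.07% in WT-NT.

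**Figure D3:**
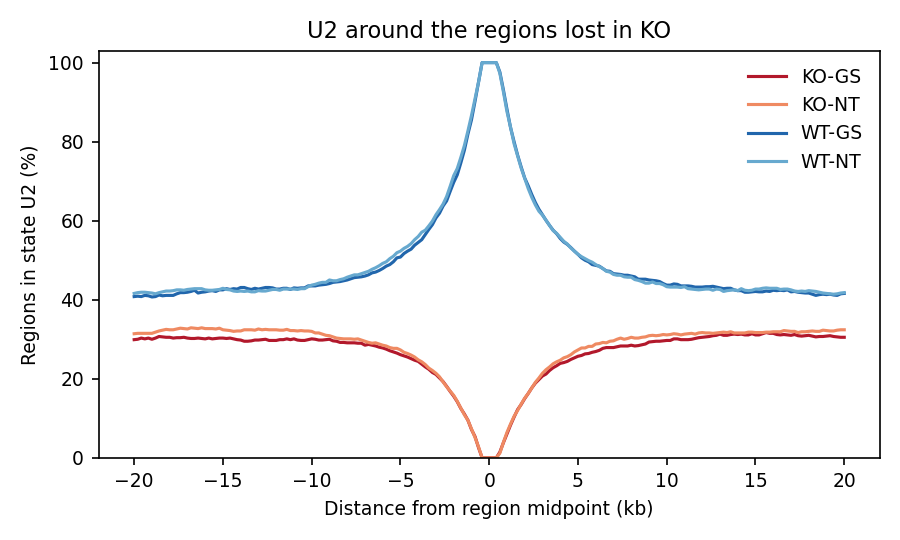
Share of lost regions (%) that were in state U2 at each distance (kb) from the region midpoint, 1 line per segmentation. The lines of KO-GS and KO-NT run together below those of WT-GS and WT-NT, with 30.2 and 31.9% against 41.2 and 41.7% at 20 kb.

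Every autosome carried lost U2. Counts ran from 179 regions on chromosome 19 to 597 on chromosome 1, with a mean density of 2.89 ± 0.560 regions per Mb, lowest on chromosome 7 at 1.46 and highest on chromosome 10 at 3.66. Relative to the U2 available, the share of WT U2 bins that were U1 in both KO segmentations was 5.68% ± 0.778, from 3.98% on chromosome 7 to 6.91% on chromosome 16. It exceeded the share of KO U2 bins that were U1 in both WT segmentations, 0.696% ± 0.153, on 19 of 19 autosomes. The ratio of lost to gained region length lay between 6.67 on chromosome 4 and 16.9 on chromosome 9. Along the chromosomes the share varied little over the autosomes as a whole. In 10 equal parts from 3 Mb to the distal end it lay between 5.07% in the most distal part and 6.96% in the part nearest the centromere, with SDs over chromosomes of 2.33 to 8.95. Chromosome X, which the rule leaves out, had the opposite balance. It held 9 lost regions (20.2 kb) and 651 gained regions (1569.6 kb), with 0.650% of WT U2 bins lost and 28.3% of KO U2 bins gained. The sex of the embryos is not given, so its part in the values on X cannot be told apart from genotype.

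**Figure D4:**
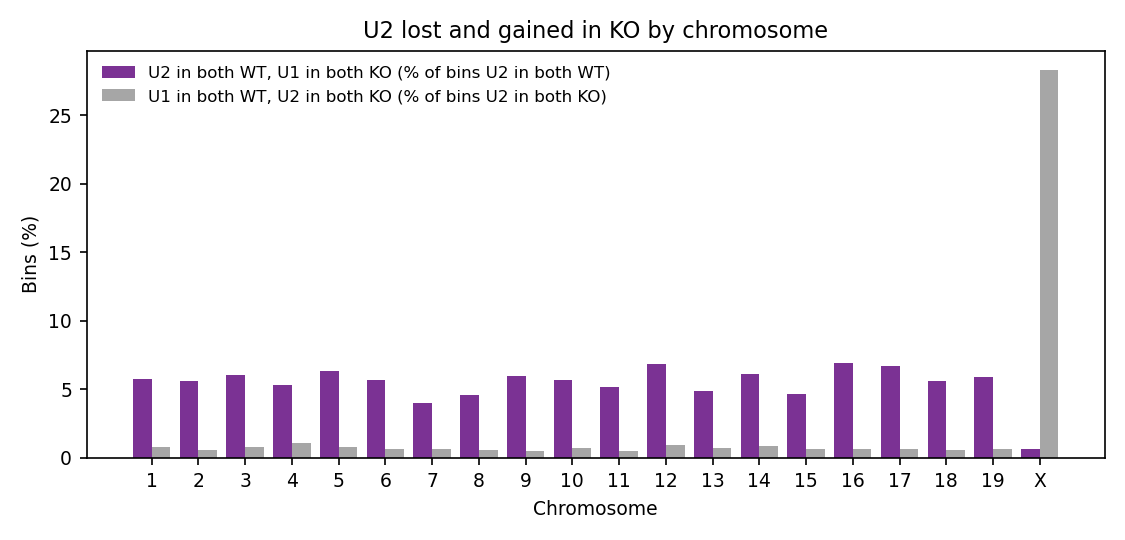
Share of bins (%) by chromosome, for U2 lost in KO (purple, of bins U2 in both WT segmentations) and U2 gained in KO (grey, of bins U2 in both KO segmentations). The purple bars lie between 3.98 and 6.91% on the autosomes and above the grey ones on all 19, whereas on X they are 0.650 and 28.3%.

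Most regions stood alone, but their spacing was uneven. The median gap between neighbouring regions was 93.1 kb, 17.5% of gaps were 10 kb or less and 48.5% were over 100 kb. With neighbours up to 10 kb apart joined, 4817 regions (68.3%) stood alone, and 9 groups held 5 or more regions, 47 in all. Of 2482 windows of 1 Mb, 1734 (69.9%) held a region, and 343 windows (13.8%) held 50% of all region bases. Lost length exceeded gained length in 1675 windows and fell short of it in 132.

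The windows with the most lost U2 were spread over 9 chromosomes. The first was chromosome 12 from 27000001 to 28000000, with 21 regions and 90 kb. U2 covered 40.4% of that window in KO-GS and 36.0% in KO-NT, against 63.5% in WT-GS and 55.6% in WT-NT. The window on chromosome 1 from 195000001 to 196000000 came next, with 19 regions and 84.0 kb, and U2 shares of 40.0% in KO-GS and 37.0% in KO-NT against 54.4% in WT-GS and 61.9% in WT-NT. Chromosome 10 from 125000001 held 76.8 kb, chromosome 17 from 43000001 held 73.4 kb in 24 regions, chromosome 11 from 19000001 held 73.0 kb and chromosome 14 from 101000001 held 72.6 kb. The other four windows of the first 10 began at 8000001 on chromosome 18, at 40000001 on chromosome 13, at 111000001 on chromosome 9 and at 57000001 on chromosome 1, with 65.6, 61.4, 60.6 and 60.0 kb. The windows from 99000001 on chromosome 3 and from 33000001 on chromosome 9 also held 60.0 kb. The chromosome 9 window at 111000001 lost the largest part of its WT U2 among the 10, at 31.6%, and the chromosome 18 window the smallest, at 9.69%. Gained U2 was 0 kb in 8 of the 10, 9.80 kb in the chromosome 14 window and 1.00 kb in the chromosome 18 window. Together the 10 windows held 3.20% of region bases.

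The 10 longest regions repeated the range of positions. They lay on 6 chromosomes, 6 of them inside a WT domain, 3 at an end and 1 a whole domain. After the region on chromosome 3 came one on chromosome 2 from 146365401 to 146388000, whose WT domain of 22.8 kb was U1 in both KO segmentations over 99.1% of its length. The region on chromosome 8 from 62974401 to 62993400 opened in the middle of a 41.4 kb domain, and 72.0% of the flanking bins were still marked in KO-GS and 95% in KO-NT, against 100% in both WT-GS and WT-NT. The region on chromosome 10 from 121902201 to 121920000 was bounded in the same way, with 100% of the flanking bins marked in KO-GS and 96.0% in KO-NT. The others lay on chromosome 16 from 56533201 (18.0 kb), chromosome 6 from 76875201 (17.0 kb), chromosome 3 from 23599201 and chromosome 8 from 105345801 (16.8 kb each), chromosome 3 from 34638001 (16.6 kb) and chromosome 2 from 12033401 (16.4 kb).

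Among the regions that were a whole domain, U2 throughout in WT, the longest lay on chromosome 3 from 34638001 to 34654600, with no marked bin in the flanking 10 kb on either side in KO-GS or KO-NT, against 4.00% in WT-GS and 74.0% in WT-NT. The next 4 were on chromosome 1 from 114670401 to 114686000 and from 35315601 to 35331000, on chromosome 14 from 17907801 to 17921600 and on chromosome 5 from 79688001 to 79701400. Around them at most 4.0% of flanking bins were marked in KO-GS and 7.0% in KO-NT, against 7.0 to 22.0% in WT-GS and 3.00 to 54.0% in WT-NT. The single domain that lost most was chromosome 5 from 39234001 to 39303600, where 5 regions and smaller pieces took 32.0 kb of 69.6 kb.

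Few lost regions overlapped a SIRT7 peak, which the rule did not use, and the same held for gained and kept U2. Of 2272 autosomal peaks in the GS list, 23 overlapped a region by at least 1 bp, each a different one, so that 0.326% of regions were touched, and 0 of 58 autosomal NT peaks did. The share touched by a GS peak was 0.369% for gained regions and 0.299% for runs that were U2 in all 4 segmentations. By bins, which do not depend on run length, GS peaks touched 0.0990% of lost U2, 0.0686% of WT U2 and 0.147% of all autosomal bins. The touched regions lay on 14 chromosomes, 12 of them inside a WT domain, 8 at an end and 3 whole. The longest was on chromosome 1 from 44458401 to 44465600 and enclosed a peak from 44460864 to 44461969. Next came chromosome 4 from 80639601 to 80646600, chromosome 19 from 38737601 to 38744200 and chromosome 3 from 39187601 to 39193600, each with a whole peak inside. The others among the first 10 began at 5311201 and 100170201 on chromosome 4, 18759601 on chromosome 3, 8532401 on chromosome 18, 88709801 on chromosome 13 and 132825001 on chromosome 2. The peaks' deposited scores ran from 541 to 922 with a median of 648, against a median of 629 over all autosomal GS peaks. None of these 23 peaks overlapped a peak of the NT list. With 58 autosomal NT peaks against 2272 GS peaks, little overlap was possible for any set of GS peaks. The share over all GS peaks is not given here, so this is no trait of the 23.

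Lost regions lay somewhat nearer to GS peaks than U2 that KO cells kept. Within 100 kb of a GS peak were 1084 regions (15.4%), against 19.1% of gained regions and 11.1% of runs that were U2 in all 4 segmentations. The median distance was 444 kb for lost regions, 395 kb for gained regions and 604 kb for kept runs. By bins, 15.9% of lost U2 and 12.3% of all WT U2 lay within 100 kb of a GS peak, and so did 15.1% of all autosomal bins. Lost bins were near a peak more often than WT U2 bins on 17 of 19 autosomes and less often on the other two. The share of WT U2 lost was 7.31% ± 1.36 within 100 kb of a GS peak, 6.24% ± 0.918 at 100 to 500 kb and 4.84% ± 0.967 beyond.

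Domain length moved with the distance to SIRT7 peaks. Of WT U2 bins within 100 kb of a GS peak 43.5% belonged to domains of 50 kb or longer, against 58.7% of those over 500 kb away. In each of 4 classes of domain length the share lost was higher within 100 kb of a peak than beyond 500 kb. The difference was smaller than the SD over autosomes of the near share in every class. Each class still pools domains of different lengths. In domains of 1 to 5 kb the shares were 31.8% ± 10.0 within 100 kb of a peak, 31.4% ± 4.36 at 100 to 500 kb and 30.9% ± 5.03 beyond. In domains of 5 to 20 kb they were 15.3% ± 3.27, 15.5% ± 1.97 and 13.2% ± 2.56, and in domains of 20 to 50 kb 5.99% ± 1.95, 5.55% ± 1.21 and 5.39% ± 1.58, in the same order. In domains of 50 kb or longer 2.17% ± 1.44 was lost within 100 kb of a peak, 1.93% ± 0.573 at 100 to 500 kb and 1.53% ± 0.388 beyond. The part of domain length in the difference between near and far was not tested.

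**Figure D5:**
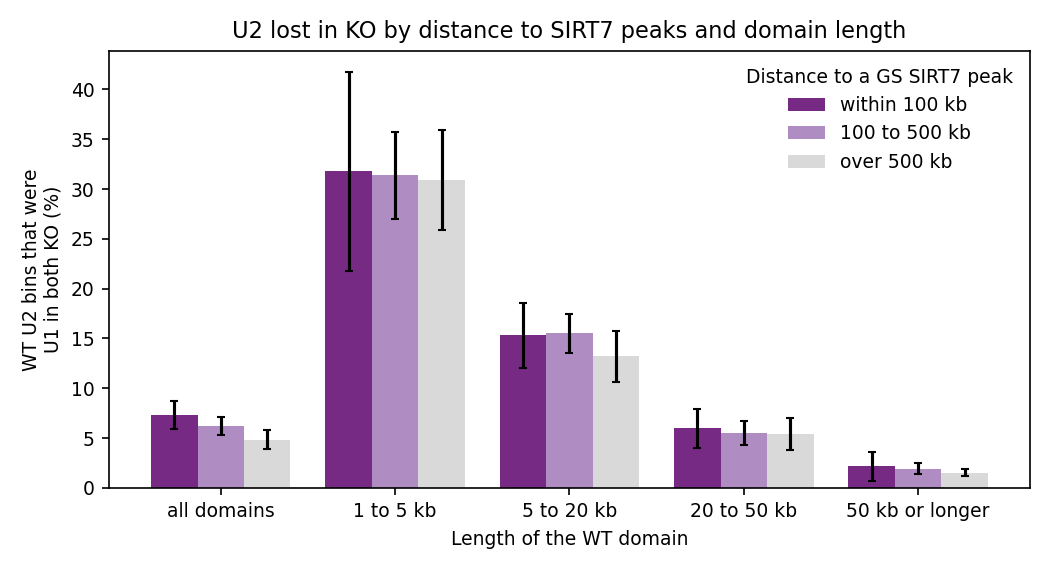
Share of WT U2 bins (%) that were U1 in both KO segmentations, for 3 ranges of distance to the nearest GS SIRT7 peak, over all WT domains and within 4 classes of domain length; error bars are 1 SD over 19 autosomes. Over all domains the share is 7.31% near peaks and 4.84% far from them, while it is 31.8 and 30.9% in domains of 1 to 5 kb and 2.17 and 1.53% in those of 50 kb or longer.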

How the data were processed

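Per the submitters' processing notes, the authors used deepTools 2.4.2, MACS 1.4.2, SAMtools 0.1.19, Bowtie, Trimmomatic 0.36 and FastQC 0.11.3 with mm9 and hg19, each without a stated role. The authors deposited segments of 4 state names for each genotype and treatment, and SIRT7 peaks with a score up to 1000 that here served only to describe peaks and to keep the upper 50% of the GS list. The sources used here give neither the segmentation tool, the meaning of the states, read totals nor the origin of the score. Chromosome 1 ended at 197195400 in all segmentations.

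Segments were expanded to 200 bp bins with Python 3.11.15 and NumPy 2.4.6, and the rule, domains and distances were computed from the bins and checked on planted regions. A distance of 0 means an overlap of 1 bp. The members and lists were chosen with earlier results of these data known. Named regions are the 10 longest, the 10 windows of 1 Mb with most region length (ties by chromosome), the 5 longest whole domains and the 10 longest that overlap a GS peak; the domain that lost most was added after its values were seen. No tests were made. Gene results planned earlier could not be computed without mm9 annotation. Alternatives changed the length minimum, bin width, joining, treatments, chromosomes, domains and peaks.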

Additional observations from a re-analysis of the deposited data

How the results depend on the processing

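The number, length and lost-to-gained ratio of the regions moved with the treatments that had to show the pattern and with the length minimum. With GS alone there were 21666 regions of 109 Mb with a ratio of 3.23, and 21.5% of WT U2 bins were lost. With NT alone there were 26731 regions of 115 Mb with a ratio of 2.88, and 23.0% of bins were lost. With a minimum of 5 kb the values were 1179 regions, 8.44 Mb and a ratio of 17.1, and with a minimum of 2 kb 4603 regions. With chromosome X added the ratio was 6.20. Lost length exceeded gained length under every alternative to the ratio that was run.

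Position in the WT domain moved under 9 of 10 alternatives. Moved here means outside the counting interval of the main value, 39.8 to 42.1% for inside. That interval counts each region as independent and is narrower than the SD over autosomes, 3.39 for inside. The shares inside, at an end and whole were 32.1, 57.3 and 10.6% with no minimum length, 43.6, 43.0 and 13.4% from 2 kb and 46.6, 39.2 and 14.2% from 5 kb. They were 26.8, 55.9 and 17.3% with bins of 1 kb, 29.5, 52.5 and 18.0% where segments under 1 kb were joined to their neighbour, and 35.9, 49.7 and 14.4% with regions up to 400 bp apart joined. By domain definition they were 65.8, 30.9 and 3.29% for WT-GS alone, 65.1, 31.1 and 3.86% for WT-NT alone, and 16.3, 54.1 and 29.6% for U2 alone. Inside exceeded end from 2 kb, from 5 kb and for domains of WT-GS or WT-NT alone, and fell short of it otherwise. The balance of inside against end therefore depends on the definition and on the length minimum. Domains of a single WT segmentation contain the main domains, so they can only raise the share inside. Domains of U2 alone lie within the main domains, so they can only lower it. The cause of the other shifts was not tested.

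Regions near a GS SIRT7 peak made up 16.4% from 2 kb and 18.0% from 5 kb, with median distances of 420 and 401 kb. With the upper 50% of the GS list they were 8.00% at a median of 837 kb, and with the NT list 0.355% at a median of 19956 kb. Nearness of 50 kb, 10 kb and an overlap gave 8.35, 2.31 and 0.326%. Fewer peaks or shorter distances lower these shares by construction. Mean density per Mb was 4.28 with no minimum length, 1.89 from 2 kb, 0.483 from 5 kb and 16.9 per Mb of WT U2. The other 43 values stayed within 1.5 times a count or total, or within the SD over chromosomes or the counting interval of another value. Reversal was defined only for the lost-to-gained ratio, which did not reverse. The order of inside and end was not part of that check, and it did change as given above.

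No paired analysis was possible because each genotype and treatment had 1 pooled segmentation. Alternatives on genes were not run for lack of mm9 annotation. Unknown depth and state meaning, and 1 segmentation for each genotype and treatment, limit all values.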
